A study of Mus musculus with 2 samples.

Results

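The Gal and Chga ECs described here were the endothelial cells (ECs) of Lewis lung carcinoma (LLC) tumours with the highest transcript levels of Gal, Chga, Cxcr4, Kcnj8, Bmp2 and Acpp. For each deposited cell of both libraries a score was taken as the mean deposited value of the 6 genes, which is the natural log of 1 plus the UMIs (counted transcript molecules) per 10000 UMIs of the cell, and the top 10% of cells by this score were chosen. They were 286 of the 2517 cells from a tumour injected with PBS and 100 of the 1340 cells from a tumour injected with cGAMP. Since the 6 genes chose the cells, their levels and every difference between chosen and other cells are descriptions and were not tested.

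The study asked how tumour ECs respond to activation of STING, a sensor protein that binds cyclic dinucleotides such as cGAMP and switches on interferon genes. LLC, a mouse lung carcinoma line, grew under the skin of adult C57BL/6 mice, in the methods male, C57BL/6 J and 8 to 9 weeks old, for which no genetic change is given, and the tumours received 14 µg of cGAMP in 70 µl of PBS, or the same volume of PBS alone, directly into the tumour. Live CD31+ CD45- cells were sorted and sequenced by the droplet method, 24 h after injection by the main description and 6 h by a supplementary legend, with version 2 of the kit in the labels and version 3 in the methods. Each library came from 1 mouse, so that mouse, library and treatment cannot be told apart, no p-value was computed, and all 95% intervals cover counting error only.

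Tip cells are the ECs at the front of a growing vessel sprout, and stalk cells follow behind them. VEGF guides tip cells, Delta-like 4 and Notch restrain their number, and CXCR4 and the basement membrane remodelled around the sprout mark them in tumours. Galanin, encoded by Gal, and chromogranin A, encoded by Chga, are best known elsewhere, as a neuropeptide and as a protein of hormone secretory granules. CXCR4 is the receptor of the chemokine CXCL12, Kcnj8 encodes the pore of an ATP-sensitive potassium channel, BMP2 is a secreted ligand of bone morphogenetic protein receptors, and Acpp encodes prostatic acid phosphatase, which can release adenosine from AMP.

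The PBS library held 92081146 UMIs and the cGAMP library 63366746, and 1 cell barcode occurred in both. The chosen cells were deeper than the others. Their median was 37978 UMIs against 28955 in the PBS library and 46411 against 40931.5 in the cGAMP library, and the part of this in the choice was addressed only by thinning each cell to 5000 UMIs before scoring, after which 307 of 377 chosen cells were the same cells. In what follows, a level is the UMIs of a gene summed over a set of cells, in CPM, the UMIs per 1000000 UMIs of that set, and a difference is the log2 ratio of 2 levels after 1 CPM was added to both.

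The share of Gal and Chga ECs was 11.4% in PBS, with an exact 95% interval from 10.1 to 12.7, and 7.46% in cGAMP, with one from 6.11 to 9.0. From PBS to cGAMP the difference was -3.90 percentage points. The levels of the 6 genes may themselves change with cGAMP, and 2 of them, Cxcr4 and Acpp, were at least 2-fold lower in the other cGAMP-treated ECs. Fewer such cells and lower levels of the genes of the score cannot be told apart by this share. The score had no gap at the limit of the choice. The last 3 cells inside had scores of 0.683, 0.682 and 0.682, and the first 3 outside had 0.682, 0.675 and 0.672, whereas the highest score was 2.10. Within 0.05 of the limit lay 29 chosen and 30 other cells in PBS, and 13 and 14 in cGAMP. The class is a range cut from a score, and whether it is a separate cell type was not tested. The lower end was large, and 877 of 2231 other PBS-treated and 540 of 1240 other cGAMP-treated ECs had a score of 0.

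**Figure D1:**
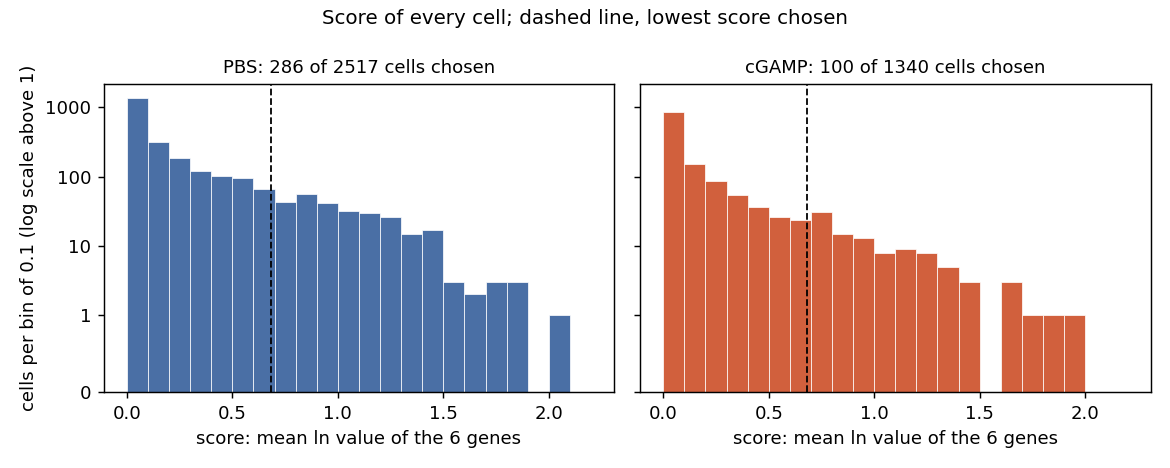
Number of ECs (vertical axis, log scale above 1) by score, the mean natural-log value of the 6 genes (horizontal axis, bins of 0.1), in the PBS and cGAMP libraries. The dashed line is the lowest chosen score, 0.682, and cells lie on both sides of it without a gap.

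Most chosen cells had UMIs of several of the 6 genes. In PBS, 90 of the 286 had UMIs of all 6 and 6 cells of only 2, and in cGAMP 21 of 100 had all 6 and 4 had 2. Gal, on chromosome 19 from 3409915 to 3414544 of GRCm38 (mm10), had 886 CPM in the chosen and 11.8 CPM in the other PBS-treated ECs, and 847 and 9.57 CPM in cGAMP. Chga, on chromosome 12 from 102554969 to 102565028, had 728 and 39.8 CPM in PBS and 1119.6 and 47.2 CPM in cGAMP. The 2 genes were spread differently over the chosen cells. Per cell, the natural-log value of Gal ran from 0 over a median of 0.68 to 5.56 in PBS and from 0 over 0.22 to 4.68 in cGAMP, and that of Chga from 0 over 1.80 to 4.0 and from 0 over 2.01 to 4.3. In the cGAMP library 1 cell held 26.3% of the Gal UMIs and in the PBS library 8.65%, while for Chga the highest cell held 6.44% and 2.31%. Thinned to 5000 UMIs, 47.7% of chosen PBS-treated ECs (41.7 to 53.7) had a Gal UMI against 2.82% of the other ECs, and 35.4% (26 to 45.6) against 1.79% in cGAMP. For Chga the shares were 71.5% (65.9 to 76.7) against 8.26%, and 71.7% (61.8 to 80.3) against 5.54%. Without thinning, Gal was found in 68.5% and 57.0% and Chga in 86.4% and 77.0% of the chosen cells. Lyz2, a leucocyte transcript taken here as a guide to free RNA, was found in 2.14% and 3.03% of the thinned chosen cells. In the thinned other cells it was found in 2.17% and 5.94%. The shares of Gal in the other ECs, and of Chga in the other cGAMP-treated ECs, were near or below those of Lyz2. The share of Chga in the other PBS-treated ECs was above it. Free RNA of Gal and Chga themselves was not measured. Single other ECs had natural-log values up to 2.63 in PBS and 2.41 in cGAMP for Gal, and up to 3.55 and 3.72 for Chga.

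The bases before the start of transcription of both genes are shown, because Gal and Chga lead the class and either can do so without the other. The sequences are the 250 bases before the RefSeq start in GRCm38.p6, 5′ to 3′ on the strand of the gene, with any match to TGACGTNA, the cAMP response element with any base at N, or to GAAA followed by any 2 bases and GAAA, the core of the interferon-stimulated response element, in capitals, both strands being searched. Gal is on the minus strand, chr19:3414545-3414794, and Chga on the plus strand, chr12:102554691-102554940.
Gal: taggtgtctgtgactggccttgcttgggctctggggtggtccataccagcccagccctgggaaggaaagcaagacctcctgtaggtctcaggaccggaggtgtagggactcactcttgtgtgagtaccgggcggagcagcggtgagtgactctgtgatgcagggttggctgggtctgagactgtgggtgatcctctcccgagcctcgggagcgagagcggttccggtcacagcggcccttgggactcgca
Chga: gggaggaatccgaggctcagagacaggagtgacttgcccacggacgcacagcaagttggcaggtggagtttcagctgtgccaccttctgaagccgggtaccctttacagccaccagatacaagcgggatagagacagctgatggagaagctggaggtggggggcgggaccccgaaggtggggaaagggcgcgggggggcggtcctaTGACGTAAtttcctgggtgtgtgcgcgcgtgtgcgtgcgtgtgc
The Chga window held 1 match to the cAMP response element, 44 to 37 bases before the start, and the Gal window held no match to either motif. TGACGTNA occurred in 2.52% of the 32851 mouse promoter windows, and in 1 of the 5 genes of the score with a window in the table. A match describes letters only and is not evidence that a factor binds.

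Not all chosen cells had UMIs of both Gal and Chga. Of the 286 chosen PBS-treated ECs, 164 had UMIs of both, 32 of Gal without Chga, 83 of Chga without Gal and 7 of neither, and of the 100 chosen cGAMP-treated ECs these classes held 38, 19, 39 and 4. Chga had the highest value of the 6 genes in 131 and 51 cells, Gal in 84 and 19, Bmp2 in 42 and 14, Cxcr4 in 23 and 7, Kcnj8 in 6 and 9, and Acpp in none. Over all cells of a library, the Pearson correlation of the natural-log values of Gal and Chga was 0.30 in PBS (2517 cells) and 0.17 in cGAMP (1340 cells). Over the chosen cells the Pearson correlation was -0.30 in PBS (286 cells) and -0.38 in cGAMP (100 cells). Cells of 1 library share their mouse and their range of depth, and choosing on a sum lowers the correlation of its terms, so that this is given as a description. Cxcr4 and Kcnj8 had correlations of 0.21 and 0.28 over the chosen cells.

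**Figure D2:**
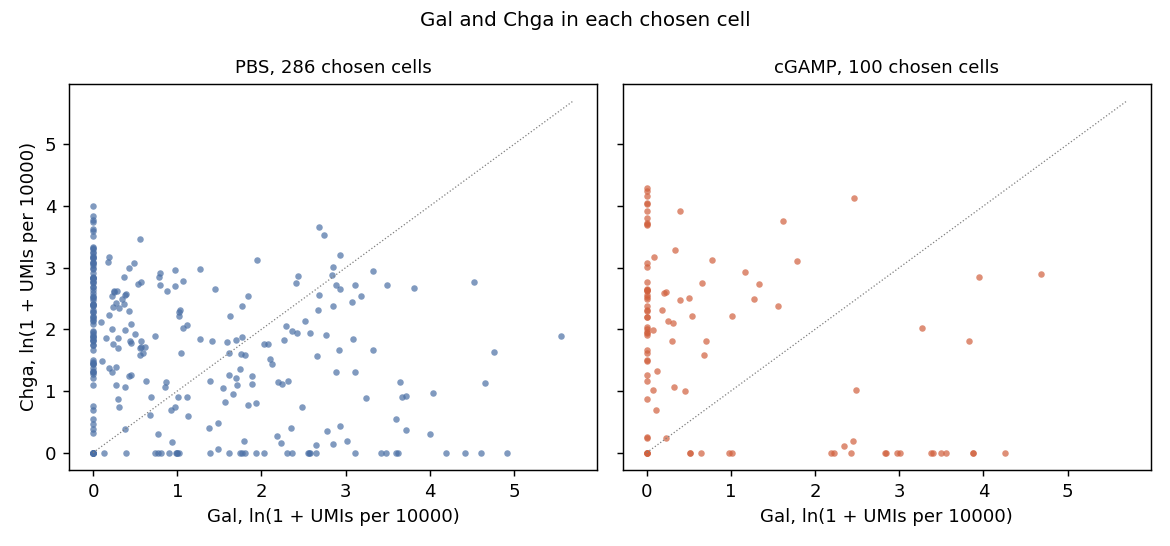
Gal (horizontal axis) against Chga (vertical axis) in each chosen EC, both as natural log of 1 plus UMIs per 10000, by library, with a dotted line at equal values. Cells line both axes, 83 PBS-treated and 39 cGAMP-treated ECs having Chga without Gal and 32 and 19 having Gal without Chga.

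The other 4 genes of the score also differed in how many chosen cells held them. Thinned to 5000 UMIs, Cxcr4 was found in 65.8% of the chosen ECs in PBS and 58.6% in cGAMP, Bmp2 in 65.5% and 66.7%, Kcnj8 in 32.4% and 34.3%, and Acpp in 18.9% and 16.2%. Cxcr4 had 257 CPM in the chosen and 55.5 CPM in the other PBS-treated ECs, and 237 and 21.3 CPM in cGAMP, with UMIs in 280 of 286 and 89 of 100 chosen cells. Bmp2 had 309 and 38.4 CPM in PBS and 381 and 37.4 CPM in cGAMP. Kcnj8 had 84.4 and 14.4 CPM, and 146 and 25.8 CPM. Acpp was the lowest, with 57.0 and 6.69 CPM and with 35.9 and 1.86 CPM. Leaving 1 gene out of the score kept between 79.8% of the cells (without Chga) and 96.9% (without Acpp).

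The label of tip-like ECs was checked against 25 tip cell genes that the score did not use. In PBS, 23 of the 25 had a higher level in the Gal and Chga ECs than in the other ECs and 11 were at least 2-fold higher, with a median log2 ratio of 0.80, beside a median of -0.06 over the 9536 genes with at least 5 CPM, of which 2.53% were at least 2-fold higher. In cGAMP, 22 of 25 were higher, 13 at least 2-fold, with a median of 1.01, beside -0.03 over 9441 genes, of which 2.78% were at least 2-fold higher. Pgf, which encodes placental growth factor and lies on chromosome 12 from 85166635 to 85177790, was at 773 CPM in the chosen and 147 CPM in the other PBS-treated ECs, and at 646 and 103 CPM in cGAMP. It was found in 85.1% and 78.8% of the thinned chosen cells against 18.9% and 11.6% of the others. Apln, the ligand of the apelin receptor, was at 817 against 402 CPM in PBS and 791 against 298 CPM in cGAMP. Adm, which encodes adrenomedullin, was at 419 against 182 and at 477 against 149 CPM. Nid2, a nidogen that links laminin and collagen IV in basement membranes, was at 321 against 112 and at 216 against 79.8 CPM.

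Of the tip cell genes, 2 in PBS and 3 in cGAMP were lower, and others were higher by less than 2-fold in 1 or both libraries. Vegfc, a growth factor of lymphatic vessels, was the only 1 of the 25 at least 2-fold lower, with log2 ratios of -1.86 and -2.10. Kdr, the main VEGF receptor of ECs, had ratios of -0.44 and -0.74. Esm1, a secreted proteoglycan of tip cells, was at 505 against 303 CPM in PBS, below 2-fold, and at 459.9 against 178 CPM in cGAMP. Angpt2, the angiopoietin that antagonises Tie2, had ratios of 0.80 and 0.38, and Dll4, the Notch ligand of tip cells, 0.34 and 0.48. When each EC was ranked by its mean value over the 25 genes, 49.0% of the chosen PBS-treated ECs (43.0 to 54.9) were among the top 10% of all cells, against 7.75% of the others, and 31.0% (22.1 to 41.0) against 3.39% in cGAMP. The tip cell genes thus ran with the label, and the list is no independent evidence because it was written with earlier results of these data known.

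Over all genes with at least 20 CPM in both libraries, 100 (1.75% of 5702) were at least 2-fold higher in the Gal and Chga ECs in both libraries and 119 (2.09%) at least 2-fold lower. In PBS alone, 155 genes (2.54% of 6104) were higher and 216 (3.54%) lower, and in cGAMP 163 (2.75% of 5938) and 178 (3.0%). At 5 CPM or more in both libraries, 162 genes (1.75% of 9252) were higher and 258 (2.79%) lower. These shares describe the choice of cells and nothing is read from them.

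Beyond the 6 genes of the score, Gm37800, a long non-coding RNA gene on chromosome 1 from 184610280 to 184629473, had the highest ratio by the lower of the 2 libraries. It belongs to the tip cell list, as do Pgf and Fn1, and it was at 353 CPM in the chosen and 36.1 CPM in the other PBS-treated ECs, and at 247 and 17.8 CPM in cGAMP, log2 ratios of 3.26 (3.22 to 3.36) and 3.72 (3.68 to 3.91). Efemp1, which encodes the extracellular protein fibulin-3, followed with 2.88 and 2.44, and the long non-coding RNA 9530059O14Rik had 2.19 and 3.40. Kcna5, a voltage-gated potassium channel, had ratios of 2.40 and 2.75, and Nos2, the inducible nitric oxide synthase, had 2.12 and 2.36, from 85.5 against 18.9 CPM and 79.8 against 14.8 CPM. A Nos2 UMI was found in 28.1% of thinned chosen cells against 6.42% in PBS and in 27.3% against 4.32% in cGAMP.

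Among the others of the 20, Fn1, which encodes fibronectin, was at 536 against 160.5 CPM in PBS and 231 against 44.4 CPM in cGAMP. Adam19, a membrane metalloprotease, had ratios of 1.72 and 1.89. Ackr3, which binds and clears CXCL12, was at 151 against 44.9 and at 217 against 49.7 CPM, so that both receptors of CXCL12 were at least 2-fold higher in these cells, Cxcr4 by the choice of cells, while the ligand gene Cxcl12 had ratios of -0.34 and 0.12. Ccl2, the chemokine that attracts monocytes, was at 508 against 149 and at 665 against 210.1 CPM, with 22.5% of the UMIs of the chosen cGAMP-treated ECs in 1 cell. The remaining genes of the 20 were Rcsd1, Dapk2, Sez6l2, Lcp2, Sept1, Anxa6, Gfod1, Rnd3, Slc2a13 and Morc4, with ratios between 1.66 and 2.24 in PBS and between 1.72 and 2.96 in cGAMP. Lcp2 encodes an adaptor protein known from T cells and platelets, and Dapk2 a kinase linked to cell death.

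**Figure D3:**
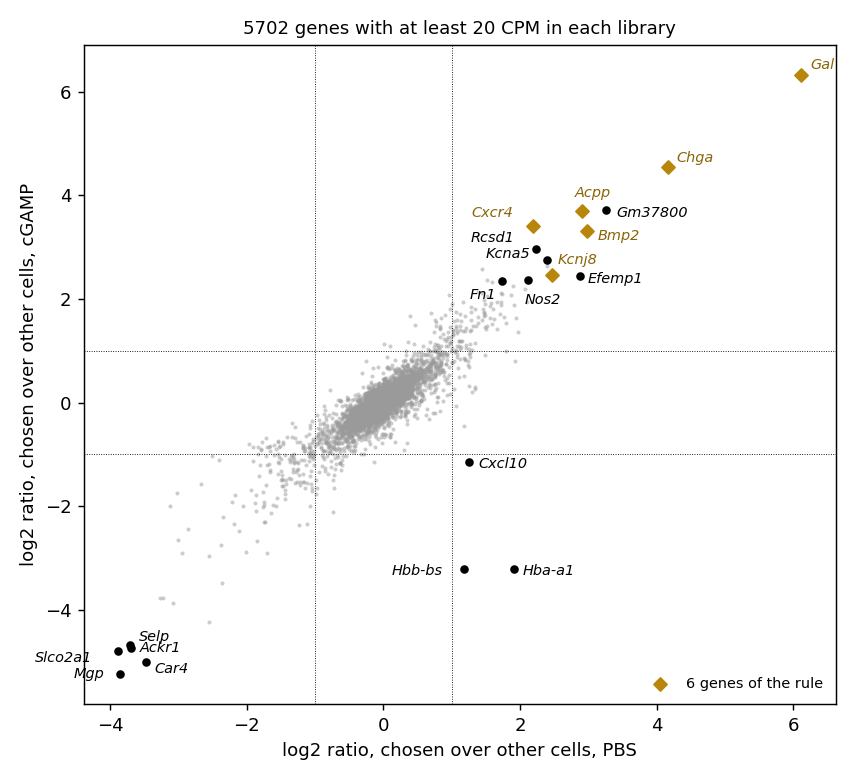
Log2 ratio of summed CPM in the chosen over the other ECs in PBS (horizontal axis) and cGAMP (vertical axis) for 5702 genes with at least 20 CPM in chosen or other cells of each library. Diamonds are the 6 genes of the score, dotted lines mark 2-fold, and Cxcl10, Hbb-bs and Hba-a1 lie in the corner of genes higher in PBS and lower in cGAMP.

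Of the 10 genes lowest in the Gal and Chga ECs, Slco2a1, Selp, Ackr1 and Fbln2 belong to the stalk-like and venous list and Mgp and Rbp7 to the arterial list. Selp, the adhesion molecule P-selectin, was at 14.4 CPM in the chosen and 201 CPM in the other PBS-treated ECs, and at 13.8 and 375 CPM in cGAMP. Ackr1, a venular receptor that carries chemokines across the endothelium, was at 2.62 and 45.8 CPM and at 6.05 and 186 CPM. In thinned chosen cells an Ackr1 UMI was found in 1.42% and 2.02%, below the shares of Lyz2 in the same cells. Slco2a1, a prostaglandin transporter, had the lowest ratio by the rule, with -3.88 and -4.79. In the chosen cGAMP-treated ECs 1 cell held 57.3% of the Selp and 57.6% of the Ackr1 UMIs. Of 15 stalk-like and venous genes, 10 in PBS and 13 in cGAMP were at least 2-fold lower, beside 4.69% and 4.0% of all genes with at least 5 CPM, with medians of -2.11 and -2.88. Lrg1, a secreted glycoprotein, was at 189 against 820.3 and at 197 against 1101 CPM. Slfn2 and Vcam1 were nearest to 0 in PBS, with ratios of 0.10 and -0.11. No chosen cell was among the 10% of ECs highest for the stalk-like list, 0 of 286, which by a limit of 3 cells allows a share of up to 1.05%, and 0 of 100, which allows up to 3.0%, against 7.58% and 17.5% of the other ECs.

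The arterial list had medians of -2.59 and -1.75, with 8 and 7 of 12 genes at least 2-fold lower, beside 4.69% and 4.0% of all genes. Gja4, an arterial gap junction protein, had ratios of -3.02 and -1.75, and Nts, the neuropeptide neurotensin, -3.12 and -2.0. Mgp, a matrix protein that binds BMPs, was at 1.57 against 36.1 CPM in PBS, and in cGAMP its 3 UMIs in the chosen cells gave a ratio of -5.24 with an interval of the plain ratio from -8.99 to -5.16. Efnb2, Hey1 and Sox17 lay nearer to 0 or above it, with -0.16, -0.06 and 0.07 in PBS and 0.33, 0.00 and 0.68 in cGAMP. Car4, a carbonic anhydrase of capillary ECs, had ratios of -3.48 and -5.0. Other genes among the 10 lowest were Fbln2, Tacr1, Dnm3, Rbp7 and Lmcd1, between -3.43 and -2.95 in PBS.

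Genes of cell division were lower in the Gal and Chga ECs. Of 51 genes of G2 and mitosis, 50 had a lower level in the chosen PBS-treated ECs and 38 were at least 2-fold lower, beside 4.69% of all genes, with a median of -1.47. In cGAMP, 49 of 50 were lower and 3 at least 2-fold, near the 4.0% of all genes, with a median of -0.75. All 42 S phase genes measured in PBS were below 0, 22 at least 2-fold, with a median of -1.03, and in cGAMP 41 of 43 were, 14 at least 2-fold, with a median of -0.87. Mki67, a marker of dividing cells, was found in 8.19% of thinned chosen ECs (5.26 to 12) against 22.9% of the others in PBS and in 3.03% (0.629 to 8.60) against 12.1% in cGAMP. From PBS to cGAMP the G2 and mitosis genes had a median log2 ratio of -0.07 in the chosen and -0.75 in the other ECs.

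The pathways of the genes of the score were followed through their other members. In the BMP list, without Bmp2, 11 of 16 genes in PBS and 11 of 15 in cGAMP were below 0, with medians of -0.47 and -0.43. Over all genes with at least 5 CPM, 5555 of 9536 and 5134 of 9441 were below 0. In the BMP list 5 and 4 genes were at least 2-fold lower, beside 4.69% and 4.0% of all genes. Eng, the co-receptor endoglin, was at 291 against 782 CPM in PBS and 282 against 793 CPM in cGAMP, and Id3, a target gene of BMP signals, at 172 against 490.4 and at 265 against 665 CPM. Smad1, which carries the signal to the nucleus, was the only 1 of the list at least 2-fold higher, at 475 against 228 and at 407 against 149 CPM. Abcc9, which encodes the regulatory subunit that pairs with Kcnj8 in ATP-sensitive potassium channels and is also a pericyte gene, was at 33.3 against 15.7 and at 36.1 against 20.3 CPM. In the adenosine and phosphatase list, without Acpp, 4 of 6 genes in PBS and 5 of 6 in cGAMP were below 0. The medians were -1.04 and -0.79, and 3 genes in each library were at least 2-fold lower, beside 4.69% and 4.0% of all genes. Ada was the lowest in both. Adora2a, a receptor of the adenosine that the Acpp product can release, was the 1 gene at least 2-fold higher, with ratios of 1.87 and 2.27. Its levels were low, 14.8 against 3.34 CPM in PBS and 11.9 against 1.67 CPM in cGAMP. Entpd1, the ectonucleotidase CD39, had ratios of -1.31 and -1.14, and Nt5e, the ectonucleotidase CD73, of 0.40 and -0.08.

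Other peptide hormone and granule genes did not run with Gal and Chga as a group. Of 20 such genes listed besides Gal and Chga, 6 reached 5 CPM in each library. Cpe, the carboxypeptidase that trims prohormones, had ratios of 1.18 and 0.87 and Adm of 1.20 and 1.67, whereas Nts, Pam, Edn1 and Vwf were below 0 in both. The summed level of 5 neuroendocrine genes was 0.599 CPM in the chosen PBS-treated ECs and 0.367 CPM in the chosen cGAMP-treated ECs, against 0.788 and 0.363 CPM in the others, and 3 and 4 of the 5 genes were at 0.

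Basement membrane and hypoxia genes were higher by smaller amounts. Of 15 basement membrane genes, 13 were above 0 in PBS and 11 in cGAMP, 3 at least 2-fold in each, beside 2.53% and 2.78% of all genes, with medians of 0.32 and 0.37. Lama4, the laminin chain of vessels, was at 389 against 167 and at 270.1 against 129 CPM. Hspg2, which encodes perlecan, was at 806 against 449 and at 475 against 306 CPM. Of the hypoxia and glycolysis list, 25 of 28 genes in PBS and 24 of 27 in cGAMP were above 0, with medians of 0.34 and 0.30. Ankrd37, a hypoxia-inducible gene, had ratios of 1.17 and 1.93, Egln3, the oxygen-sensing prolyl hydroxylase, 1.80 and 1.73, and Ldha, lactate dehydrogenase, -0.03 and -0.08. Among VEGF receptors Flt1, which also acts as a decoy, was at 350.4 against 737 and at 441 against 858 CPM. Pro-apoptotic members of the BCL2 family stood out within an apoptosis list whose medians were 0.06 and -0.02. Pmaip1 (NOXA) had ratios of 1.98 and 2.01 at 11.2 against 2.08 and 11.6 against 2.11 CPM, and Bcl2l11 (BIM) 1.44 and 1.60.

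**Figure D4:**
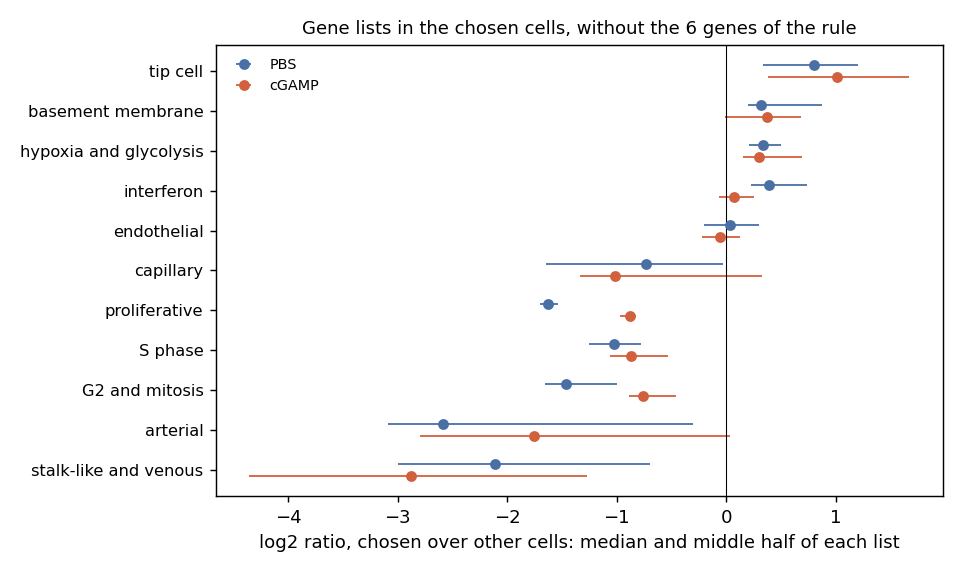
Median log2 ratio of chosen over other ECs (horizontal axis) for 11 gene lists without the genes of the score, in PBS and cGAMP, with lines from the lower to the upper quartile of the genes of each list. Tip cell medians are 0.80 and 1.01 and stalk-like and venous medians -2.11 and -2.88.

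The chosen cells had the general genes of ECs. UMIs of Cdh5 (VE-cadherin) were found in all 286 and all 100, of Pecam1 (CD31) in 285 and 99, and of Cldn5 (claudin-5) in 284 and 99, against 1859 of 2231 and 1007 of 1240 other ECs for Cldn5. Cldn5 was also the 1 endothelial gene at least 2-fold higher, at 1158 against 564 CPM in PBS and 1383 against 463 CPM in cGAMP. The 10 endothelial genes had medians of 0.03 and -0.05. Of the pericyte list the summed level was 41.8 against 35.6 CPM and 42.9 against 32.7 CPM, of which Abcc9 gave 33.3 and 36.1 CPM in the chosen cells. The epithelial and tumour cell genes summed to 3.14 against 1.98 CPM in PBS, and in cGAMP to 0 UMIs, which by a limit of 3 UMIs allows up to 0.550 CPM, against 0.432 CPM.

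Blood cell genes stood apart in a few cells. The leucocyte list summed to 19.5 CPM in the chosen and 21.7 CPM in the other PBS-treated ECs, and to 178 and 45.9 CPM in cGAMP, where 73.7% of the chosen cells' leucocyte UMIs were in 1 cell. This cell, rank 358 by score, had 431 UMIs of S100a9, 245 of S100a8 and 166 of Il1b, which are neutrophil and inflammatory genes. Of other leucocyte genes it had 20 UMIs of Tyrobp, 6 of Fcer1g, 3 of Csf3r, 1 of Ptprc and 1 of Lyz2. Its endothelial UMIs were 36 of Cldn5, 34 of Emcn, 18 of Cdh5, 8 of Pecam1 and 2 of Kdr. Haemoglobin and other erythrocyte genes summed to 246 against 89.2 CPM in PBS and 6.23 against 84.6 CPM in cGAMP, and 15 of 286 and 7 of 100 chosen cells had any. No step against doublets is given in the sources used here and no doublet caller was run, and the part of mixed cells in the results was not tested beyond leaving out the cells with S100a8, S100a9 or at least 5 haemoglobin UMIs, 8 and 9 of the chosen cells. Without those cells 94 genes were at least 2-fold higher and 111 lower in the chosen ECs in both libraries, and the tip cell medians were 0.79 and 0.98.

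Interferon genes were higher in the Gal and Chga ECs of the tumour without cGAMP. Of the 46 interferon genes with at least 5 CPM in PBS, 40 had a ratio above 0 and 7 were at least 2-fold higher (2.53% of all genes), with a median of 0.39 beside -0.06 over all genes. Rsad2, an antiviral enzyme also called viperin, was at 291 CPM in the chosen and 73.6 CPM in the other ECs. Ifit2, which binds viral RNA, was at 67.6 against 17.0 CPM, and Cmpk2, a mitochondrial nucleotide kinase beside Rsad2 on chromosome 12, at 66.2 against 18.4 CPM. Rsad2 was found in 26.7% of thinned chosen PBS-treated ECs (21.6 to 32.3) against 9.23% of the others (8.05 to 10.5). Other interferon genes were nearer to equal. Ratios were 0.25 for Bst2, -0.02 for Iigp1 and -0.12 for Rtp4. In cGAMP the list median was 0.08, with 32 of 49 genes above 0, and Rsad2 was still at 389.7 against 152 CPM.

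After cGAMP, 79 genes (1.33% of 5920) were at least 2-fold higher in the chosen cGAMP-treated than in the chosen PBS-treated ECs, and 32 (0.541%) at least 2-fold lower. Without the cells with S100a8, S100a9 or haemoglobin UMIs these were 68 and 32, and the interferon median given next was 0.83. In the other ECs these were 104 (1.72% of 6042) and 76 (1.26%). At 5 CPM or more, 117 genes (1.26% of 9260) were higher and 101 (1.09%) lower in the chosen ECs, and 157 (1.65% of 9515) and 129 (1.36%) in the other ECs. Of the 49 interferon genes, 46 were higher and 21 at least 2-fold in the Gal and Chga ECs with a median of 0.88 beside -0.04 over all genes. In the other ECs all 48 measured were higher and 36 at least 2-fold, with a median of 1.48 beside -0.08. Whether the 2 sets of cells differ beyond the spread between mice could not be tested.

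Irf7, the transcription factor that amplifies interferon signals, was at 114 CPM in the chosen PBS-treated and 673 CPM in the chosen cGAMP-treated ECs, a log2 ratio of 2.55 (2.47 to 2.64), beside 3.05 in the other ECs. Cxcl9, a chemokine that attracts T cells, was at 235 and 1108 CPM, a ratio of 2.23 beside 3.36. Isg15, a ubiquitin-like protein, was at 340.4 and 888 CPM, 1.38 beside 1.80. The other 3 genes of the list were lower, among them 2 of those that were highest in these cells without cGAMP. Ifit2 was at 67.6 and 53.7 CPM, a ratio of -0.33 (-0.53 to -0.14) beside 0.80 in the other ECs, and Cmpk2 at 66.2 and 51.7 CPM, -0.35 (-0.56 to -0.16) beside 0.45. The thinned share of chosen cells with an Ifit2 UMI was 11.4% (7.92 to 15.7) in PBS and 17.2% (10.3 to 26.1) in cGAMP. That share did not run with the level of Ifit2, and no order is read from it. The remaining gene was Cxcl10.

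Cxcl10, a further T cell chemokine on chromosome 5 from 92346638 to 92348889, was at 185 CPM in the chosen and 76.9 CPM in the other PBS-treated ECs, but at 115 and 257 CPM in cGAMP. From PBS to cGAMP its ratio was -0.68 (-0.82 to -0.56) in the Gal and Chga ECs and 1.73 in the other ECs. UMIs were concentrated in few cells. Of the chosen cells 67 of 286 and 48 of 100 had any, the highest cell held 12.2% and 26.3% of them, and without the highest cell of each library the ratio was -0.91. The thinned share of chosen cells with a Cxcl10 UMI was 10.3% (7.02 to 14.5) in PBS and 14.1% (7.95 to 22.6) in cGAMP, so that the share did not run with the level and no order is read from it. In the other ECs the share was 5.82% and 26.1%. Over the alternatives tried, the ratio in the chosen minus that in the other ECs stayed below 0, from -2.76 to -1.0, with -2.41 as reported.

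The windows before Rsad2 and Cxcl10 are shown because both are interferon genes whose summed levels in the chosen cells ran in opposite directions after cGAMP. They are 250 bases before the RefSeq start in GRCm38.p6, both on the minus strand, chr12:26456453-26456702 for Rsad2 and chr5:92348890-92349139 for Cxcl10, with matches to GAAA, any 2 bases and GAAA on either strand in capitals.
Rsad2: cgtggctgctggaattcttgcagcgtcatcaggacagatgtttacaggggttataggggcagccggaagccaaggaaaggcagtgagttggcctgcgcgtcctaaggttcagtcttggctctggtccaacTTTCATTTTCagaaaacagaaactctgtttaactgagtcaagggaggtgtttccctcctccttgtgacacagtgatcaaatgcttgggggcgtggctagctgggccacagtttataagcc
Cxcl10: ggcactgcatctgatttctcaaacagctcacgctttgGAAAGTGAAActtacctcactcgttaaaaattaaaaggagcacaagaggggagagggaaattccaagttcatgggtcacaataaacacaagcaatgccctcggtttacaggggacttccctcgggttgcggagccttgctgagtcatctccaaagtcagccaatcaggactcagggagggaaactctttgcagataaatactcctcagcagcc
Rsad2 held 1 match on the opposite strand, 120 to 111 bases before the start, and Cxcl10 held 1 match on the strand of the gene, 213 to 204 bases before it. The motif was found before 18 of the 39 interferon genes with a window in the table (46.2%), against 2.98% of all 32851 windows and 3.46% of the 27025 genes. It was in no window of the tip cell genes or of the genes of the score.

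**Figure D5:**
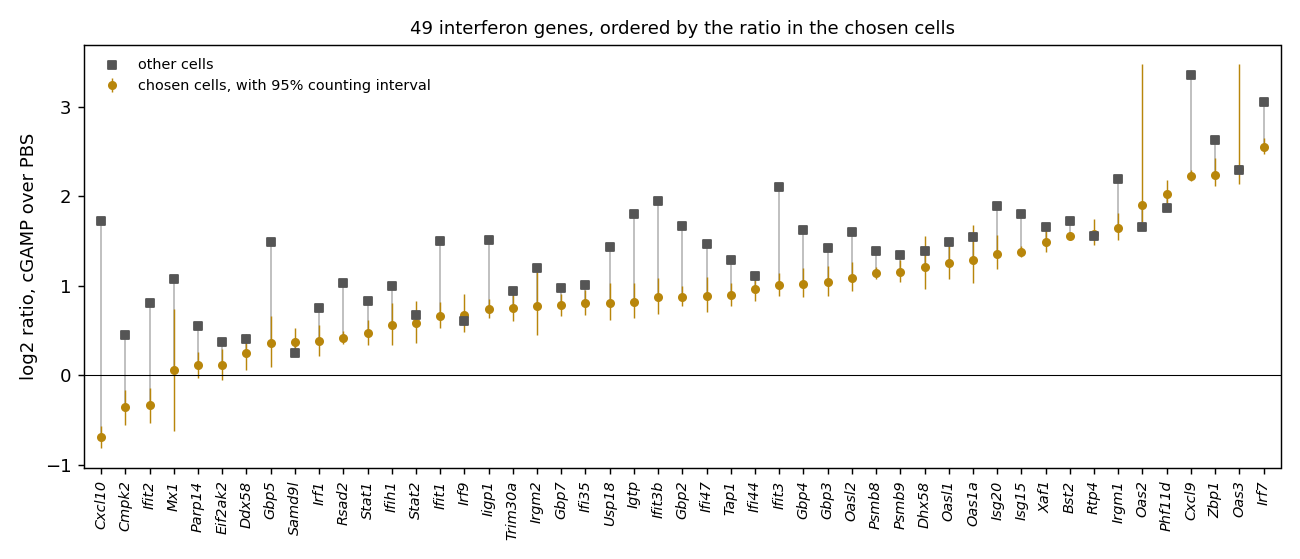
Log2 ratio of cGAMP over PBS (vertical axis) for 49 interferon genes, ordered by the ratio in the chosen ECs (circles with 1 CPM added, and 95% counting intervals of the plain ratio) beside the other ECs (squares). Cxcl10, Cmpk2 and Ifit2 lie below 0 in the chosen ECs and Irf7 is highest at 2.55.

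Outside the interferon list, Ccl5, a T cell chemokine on chromosome 11 from 83525778 to 83530518, was at 9.13 CPM in the chosen PBS-treated and 713 CPM in the chosen cGAMP-treated ECs, a log2 ratio of 6.14 (6.03 to 6.56) beside 5.96 in the other ECs. UMIs were in 8 of 286 and 68 of 100 chosen cells, and in cGAMP the level was 713 CPM in the chosen against 437 CPM in the other ECs. Serping1, the inhibitor of complement C1, was at 5.69 and 91.1 CPM, a ratio of 3.78 beside 4.73. Cfb, complement factor B, was at 2.47 and 42.5 CPM, 3.65 beside 3.52, with UMIs in 77 of 100 chosen cGAMP-treated ECs. Ubd, the ubiquitin-like protein FAT10, was at 12.9 and 101 CPM, 2.87 beside 4.25, with 42.6% of the cGAMP UMIs in 1 cell. Ifi27l2a and Tpm3-rs7 had ratios of 3.08 and 2.73 beside 3.01 and 2.89 in the other ECs. Ccnd2, which encodes cyclin D2, was at 3.89 and 26.6 CPM, a ratio of 2.50 beside 1.20.

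Of the 12 highest ratios, 4 rested on single cells. S100a9 was at 79.9 CPM in the chosen cGAMP-treated ECs, S100a8 at 45.7, Il1b at 31.9 and Nppc at 26.4 CPM, and 1 cell held 98.9%, 98.4%, 95.4% and 99.3% of those UMIs. Without the highest cell of each library their ratios were 0.94, 0.50, 0.93 and 0.04. The cell with the S100a9, S100a8 and Il1b UMIs was the same, and that with the 143 Nppc UMIs, an EC of score rank 14, was another. The haemoglobin genes Hbb-bs, Hba-a2, Hba-a1 and Hbb-bt had the lowest ratios, between -4.75 and -4.0, from 4 to 7 chosen PBS-treated cells with any UMI.

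The genes lowest in the chosen ECs after cGAMP, apart from haemoglobin, were spread over many cells. Nptx1, the secreted protein neuronal pentraxin 1, was at 43.3 CPM in PBS, with UMIs in 155 of 286 cells, and at 7.52 CPM in cGAMP, with UMIs in 16 of 100, a log2 ratio of -2.38 (-3.02 to -2.07) beside -1.81 in the other ECs. Egln3 was at 66.5 and 17.1 CPM, a ratio of -1.90 beside -1.82. Vwf, von Willebrand factor of EC storage granules, was at 167 and 52.1 CPM, -1.66 beside -0.99, and Cpe at 79.4 and 25.1 CPM, -1.62 beside -1.31. Gkn1, known as a gastric mucosal protein, was at 54.2 and 21.1 CPM, -1.32 beside -2.46. Gm47283, Enpp2 and Ccdc88c had ratios of -1.87, -1.86 and -1.40.

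Inside the chosen cells none of the 6 genes of the score was at least 2-fold higher or lower after cGAMP, as the choice on their levels would fix in part. Ratios were -0.07 for Gal, 0.62 for Chga, -0.12 for Cxcr4, 0.78 for Kcnj8, 0.30 for Bmp2 and -0.65 for Acpp. In the other ECs 2 of the 6 were at least 2-fold lower, Cxcr4 with -1.34 and Acpp with -1.43. Chga and Bmp2 differed more between the libraries inside the chosen than in the other ECs. Of the 25 tip cell genes, 17 were lower and 8 higher after cGAMP, 1 of them at least 2-fold lower, with a median of -0.26 beside -0.04 over all genes, and in the other ECs the median was -0.37. Fn1 was the gene at least 2-fold lower, with -1.21 (-1.30 to -1.13), beside -1.83 in the other ECs. Basement membrane genes had a median of -0.55, and 14 of 15 were lower, beside a median of -0.45 and 12 of 15 in the other ECs. Over all genes with at least 5 CPM, 5068 of 9260 were below 0 in the chosen and 5726 of 9515 in the other ECs. Sparc, a matrix protein that binds collagen, was at 6614 and 4687 CPM.

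The study also asked whether genes of TNF signalling and apoptosis changed in tumour ECs. Of 37 TNF and NF-kB genes, 19 were higher and 18 lower in the chosen ECs after cGAMP, 4 at least 2-fold higher and none lower, beside 1.26% and 1.09% of all genes, with a median of 0.09 beside 0.36 in the other ECs. Those 4 included Ccl5, Cxcl2, at 20.1 and 82.9 CPM with 40.3% of the cGAMP UMIs in 1 cell, Cebpb, a transcription factor of inflammation, at 27.9 and 81.0 CPM, and Il6 at 13.5 and 34.7 CPM. Icam1, the leucocyte adhesion molecule, had a ratio of -0.43 (-0.71 to -0.18) beside 0.44. Csf3, the neutrophil growth factor, was at 1.65 and 3.48 CPM in the chosen ECs but at 4.54 and 83.8 CPM in the others. None of 34 apoptosis genes was 2-fold higher or lower, 15 being above and 19 below 0, with a median of -0.03 beside 0.02. Bcl2l11 had a ratio of -0.33 (-0.51 to -0.16). Tnfsf10 (TRAIL), a death ligand induced by interferon, had -0.11 (-0.36 to 0.14) beside 0.88 in the other ECs.

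Genes that present antigen were higher together. All 17 genes of MHC class I presentation were higher in the chosen ECs after cGAMP, 11 at least 2-fold, beside 1.26% of all genes, with a median of 1.14 beside 1.45 in the other ECs. H2-K1, a class I heavy chain, was at 1595 and 3579 CPM, and B2m, its light chain, at 1628 and 3491 CPM. Reads of H2 genes may be divided between similar copies. H2-T23 had the highest ratio of the list, 2.44 beside 2.84. Tmem173, which encodes STING, was at 105 and 99.0 CPM, a ratio of -0.08 (-0.23 to 0.06) beside 0.23.

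The ratio of cGAMP over PBS in the chosen ECs minus that in the other ECs was compared for genes with at least 20 CPM in both sets of cells. It was largest for Ccnd2 at 1.29, Cxcl2 at 1.29, Cxcr4 at 1.22, Cd14 at 1.16, Fhl2 at 1.12 and Slc38a1 at 1.12. Cxcr4 is a gene of the score, so that its value is set in part by the choice of cells and nothing is read from it. Fhl2, a LIM-domain protein, was at 30.9 and 46.2 CPM in the chosen and at 30.7 and 20.6 CPM in the other ECs. Slc38a1, a glutamine transporter, was at 75.7 and 66.2 CPM in the chosen and at 38.6 and 15 CPM in the other ECs. For Cd14, the co-receptor of lipopolysaccharide, 1 cell held 41.7% of the UMIs of the chosen cGAMP-treated ECs. For Cxcl2 the cell with the S100a9 UMIs held 40.3%. Without the cells with S100a8, S100a9 or haemoglobin UMIs, the ratio of Cxcl2 was 1.21 in the chosen and 0.69 in the other ECs. That of Cd14 was then 1.76 and 0.85, but the cell with 41.7% of its UMIs was not left out. The S100a9 cell, which was, had held a further 28.4% of the Cd14 UMIs. The cell that stayed, rank 356 by score, also held 57.3% of the Selp and 57.6% of the Ackr1 UMIs in chosen cGAMP-treated ECs. The Cd14 value thus rests on few cells and nothing is read from it. The difference between the chosen and the other ECs was smallest, haemoglobin aside, for Cxcl10 at -2.41, Tubb3 at -1.64, Ubd at -1.37 and Gm4951 at -1.35. Tubb3, a neuronal tubulin, was at 21.6 and 20 CPM in the chosen and at 8.94 and 27.8 CPM in the other ECs.

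Chosen cells led by Gal and those led by Chga were compared last, a contrast set after the values were seen. They numbered 84 and 131 in PBS and 19 and 51 in cGAMP. Of 5476 genes, 8 were at least 2-fold higher in the Gal-led and 7 in the Chga-led cells in both libraries, Gal and Chga themselves included. Ccl2 was at 783 CPM in Gal-led and 382 CPM in Chga-led cells in PBS and at 800.5 and 369 CPM in cGAMP, where 1 Gal-led cell held 48.2% of the UMIs of its set. Without the highest cell of each set Ccl2 was at 459 and 316 CPM in cGAMP, a log2 ratio of 0.54, and its ratio in PBS was 0.97. Cxcl10 was at 119.8 and 32.3 CPM and at 232 and 30.9 CPM, and without the highest cells its ratios were 1.65 and 1.87. Lyve1, a hyaluronan receptor of lymphatic ECs and macrophages, was at 28.2 and 8.67 CPM and at 93.0 and 45.9 CPM, with ratios of 2.28 and 0.60 without the highest cells. Gm37800 lay with Chga, at 215 CPM in Gal-led against 458 CPM in Chga-led cells in PBS and at 126 against 337 CPM in cGAMP, with ratios of -1.15 and -2.71 without the highest cells. Fabp5, a fatty acid binding protein, was at 47.6 against 150.4 and at 35.5 against 76.8 CPM, with ratios of -0.94 and -1.22 without the highest cells. That comparison was added after the values were seen. Gm5483 and Gm5416, 2 predicted genes, were higher in the Gal-led cells, but in PBS 1 cell held 126 of 157 and 125 of 159 UMIs.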

How the data were processed

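Droplet libraries of CD31+ CD45- cells from 2 LLC tumours, 1 mouse each, were analysed. The authors had aligned reads to mm10 with Cell Ranger 3.0.0 and used Seurat 3.1.1, had removed cells with under 500 genes or over 10% mitochondrial UMIs, genes in under 3 cells and Pecam1- clusters. Doublet removal is not given in the sources used here, and none was done. The deposited values are the natural log of 1 plus UMIs per 10000 UMIs of a cell. Whole UMIs were recovered for all values (100% within 0.01 of a whole number) and summed over cells of each library. No column was left without a sample. The median depth was 29780 UMIs per cell in PBS and 41177.5 in cGAMP. Counting intervals are Clopper-Pearson for shares, Poisson for levels and exact binomial for the plain ratio of 2 levels, before 1 CPM was added. The limit printed for a count of 0 is 3 counts.

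The cells, gene lists and contrasts were chosen with earlier results of these data known. Genes were named by rule. These were the 20 highest and 10 lowest in chosen over other ECs, ranked by the less extreme library, at 20 CPM or more, the 12 highest and 12 lowest in cGAMP over PBS, the 6 largest and 6 smallest response differences, the genes of the score, and list genes by role. Lists counted genes with at least 5 CPM. With 1 library per treatment no test was made. For shares of cells with a UMI, each cell was thinned to 5000 UMIs, leaving out 5 and 1 chosen and 65 and 12 other cells. Scripts used Python 3.11.15, numpy 2.4.6, scipy 1.17.1 and pandas 2.3.3, with figures from matplotlib 3.10.9, and were tested on simulated data. Coordinates are from GENCODE on GRCm38, in which 548 of 549 named genes matched, and promoters from RefSeq GRCm38.p6.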

Additional observations from a re-analysis of the deposited data

Results flagged for a closer look

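Among genes with at least 20 CPM in chosen or other ECs of each library, 3 were at least 2-fold higher in the chosen ECs of 1 library and at least 2-fold lower in those of the other. With 1 mouse each, the difference was not tested. Cxcl10 had a log2 ratio of chosen over other ECs of 1.26 in PBS and -1.15 in cGAMP. For Hbb-bs, a haemoglobin chain, the ratio was 1.18 in PBS and -3.22 in cGAMP, and for Hba-a1, another chain, 1.91 and -3.22. Hba-a2 and Hbb-bt, under 20 CPM in cGAMP, had 1.93 and -3.14, and 1.10 and -2.48. The Hbb-bs UMIs were in 6 of 286 and 4 of 100 chosen cells, and the highest PBS cell held 53.0% of them. Of the erythrocyte UMIs of the other ECs, 1 cell held 87.6% in PBS and 88.5% in cGAMP. Without the cells with S100a8, S100a9 or at least 5 haemoglobin UMIs, the ratios of chosen over other ECs were -0.29 and 0.36 for Hbb-bs. For Hba-a1 they were 0.04 and 0.20. The ratio of cGAMP over PBS in the chosen ECs was 0.39 for Hbb-bs and 0.30 for Hba-a1, beside -4.75 and -4.60 with all cells. Leaving out cells by their haemoglobin UMIs fixes such values in advance, and nothing is read from them.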

How the results depend on the processing

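With 1 mouse per treatment, depth sets only the counting error, and genes below about 5 CPM in the 100 chosen cGAMP-treated ECs rest on few UMIs. No paired analysis was possible because each treatment has 1 library and no fit was made. The share difference stayed below 0, from -7.07 (top 20% of cells) to -2.64 percentage points. The interferon median ran from 0.75 to 1.13 (top 20%), TNF from -0.08 to 0.16, apoptosis from -0.10 to 0.02, and tip cell from 0.77 to 1.0 in PBS and from 0.89 to 1.10 in cGAMP. The cause of the following changes was not tested. With genes of at least 50 CPM, 61 were higher and 51 lower in both libraries and 49 higher and 16 lower after cGAMP, and at 5 CPM 162, 258, 117 and 101. Genes lower after cGAMP in the chosen ECs, 32 as reported, were 50 with each gene of the score divided by its SD, 57 in the top 5% of cells, 55 without Gal, 51 without Cxcr4, 52 with the top 10% of each library, 49 with the mean of per-cell CPM and 21 with 5 CPM added. Il1b after cGAMP turned to -0.12 with thinned cells, -0.83 in the top 5%, -0.57 without Kcnj8, -0.46 without Bmp2 and -0.54 without cells with S100a8, S100a9 or haemoglobin UMIs, an alternative chosen after seeing the data. The same alternative gave 0.39 for Hbb-bs and 0.30 for Hba-a1, and response differences of 0.66 and 0.16. As it leaves out cells by their haemoglobin UMIs, these values are fixed in advance and nothing is read from them. Cd14 had a response difference of -1.24 in the top 5%. Of 408 values of cGAMP over PBS for 24 named genes, 254 moved by less than their counting interval, 147 more and 7 changed sign. For chosen over other ECs these were 681, 543 and 0 of 1224.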
